A study of Homo sapiens with 9 samples.

Results

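Expression of 32 target genes of p53 was followed in H460 human lung cancer cells that were starved of serum and then given serum together with 4-hydroxytamoxifen (4-OHT). The genes were taken from a list of symbols that uses no measured value, but it was chosen with earlier results of these data known. All 32 were found among the 19869 genes of the table for H460-ERT2-RUNX3-K94/171R cells. In the table of 24331 genes that holds the other cell lines, 1 of them, CSF1, could be named, since the shortened list of names used here covers only part of chromosome 1. The data were 9 RNA-seq libraries, 1 for each of 3 stable H460 lines at 0, 8 and 16 h. The control line, H460-vec, carries no RUNX3 fusion, H460-ERT2-RUNX3 (WT) expresses wild-type RUNX3 fused to ERT2, and H460-ERT2-RUNX3-K94/171R (K94/171R) expresses a RUNX3 mutant in which the lysines at positions 94 and 171 are replaced by arginine. ERT2 is a ligand-binding domain that keeps a fused protein out of the nucleus until 4-OHT is bound. All lines derive from NCI-H460, a large cell lung cancer line with activated K-RAS, inactive RUNX3 and wild-type p53 according to the study. Cells at 0 h had been starved for 24 h, and the 8 h and 16 h libraries came from cells then given 10% serum with 1 μM 4-OHT. Serum and 4-OHT were added together, so their effects cannot be told apart within a line. The last K94/171R time is 16 h by its sample label, while a sheet of the study's own material heads it 24 h, and the label was followed. Whether each line is a single clone is not given in the sources used here. The comparison across the 3 lines was made to separate effects of wild-type RUNX3 from those of the mutant and of the inducer.

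The transcription factor p53 is held at low levels by the ubiquitin ligase MDM2 and accumulates when DNA is damaged or oncogenes are active. It binds a pair of decamers, each with a CWWG core (W is A or T), and raises transcription of genes for cell-cycle arrest, DNA repair, cell death and metabolism. Several of its targets, MDM2 among them, act back on p53.

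Potential p53 response elements near the members are shown here as a description of sequence, with no use of expression. A match does not by itself mark a gene as a target. In the hg19 reference genome (GRCh37), 9 of the 32 members had a site of 20 bases, made of adjacent decamers with both CWWG cores and at most 2 mismatches elsewhere, within 2500 bases of the gene start. The share was 28.1%, against 2.24% of the 19343 protein-coding genes of the K94/171R table searched in the same way. The members were chosen as p53 targets, so this share describes the list and is no result of the experiment. The sequences of 7 sites follow on the strand of the gene, 5′ to 3′, with the CWWG cores in capitals.
ZMAT3: aaaCAAGtccagaCATGcct
CCNG1: gcaCAAGcccaggCTAGtcc
SPATA18: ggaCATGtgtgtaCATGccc
EDA2R: gggCAAGtcagggCTTGtgt
FAS: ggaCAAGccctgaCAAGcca
CMBL: acaCAAGcccacaCAAGccc
AEN: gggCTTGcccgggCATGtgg
The ZMAT3 site (chr3:178787976-178787995) had no mismatch, which was found in 0.0465% of the protein-coding genes. The CCNG1 site (chr5:162864932-162864951) had 1 mismatch. Introns held the sites of ZMAT3, CCNG1, SPATA18 (chr4:52918123-52918142) and EDA2R (chrX:65858405-65858424). The sites of FAS (chr10:90751066-90751085) and CMBL (chr5:10307696-10307715) lay in an exon of some transcripts and an intron of others, and the site of AEN (chr15:89164537-89164556) lay upstream of the gene, with its first base 31 bases before the start. ZMAT3, EDA2R and CMBL are on the minus strand and the other 4 on the plus strand. TNFRSF10B and RRM2B had intronic sites as well. In the RefSeq promoter table (GRCh38.p14, 250 bases before to 50 after a gene start), which held 22 of the members, the AEN site was the only match, with spacers of up to 13 bases allowed. That is 4.55% of the 22, against 1.47% of all promoters. The RUNX motif TGTGGT, on either strand, was present in 3 of these 22 promoters (13.6%), those of PPM1D, TRIAP1 and GDF15, and in 13.1% of all 27305 promoters.

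Values are FPKM, fragments scaled to transcript length and to the number of mapped fragments, as the authors deposited them. A change is log2 of the ratio of FPKM values after 0.05 was added to each, which understates changes of genes with low FPKM. Each condition had 1 library, so no difference has a replicate check and no p-value was computed. As a yardstick, the middle 95% of changes was taken over all genes of like level, in 4 classes of mean FPKM over the 3 libraries (1 to 5, 5 to 20, 20 to 100, and 100 or more). This range holds true changes as well as noise and is not an error estimate. Reads per library are unknown. The most frequent ratio of low FPKM values, which stand for single reads, was 0.99 for the 8 h and the 16 h library of K94/171R cells relative to 0 h, though another ratio was as frequent or nearly so. The keratins KRT8, KRT18 and KRT19 stood between FPKM 309 and 698 in these cells. Of the 5 epithelial markers examined, EPCAM and CDH1 did not exceed FPKM 0.313 and 0.0227. Summed markers of leukocytes reached at most 5.62, nearly all from CD14, those of fibroblasts 3.61, and those of endothelial cells 0.0284. RUNX3, whose fusion and native transcripts cannot be told apart here, stood at FPKM 2.12 in starved cells, 0.712 at 8 h and 2.11 at 16 h. Its lowest level was thus at 8 h, the time at which most of the p53 targets were also lowest, and its part in the results was not tested.

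In K94/171R cells the p53 targets were lower at 8 h than in starved cells and higher at 16 h than at either earlier time. At 8 h, 27 of 32 members were below their 0 h level, against 37.4% of all listed genes, and at 16 h, 26 of 32 were above it, against 36.0%. Many listed genes are at 0 in all libraries and count in neither direction. Fewer cells with these transcripts and less RNA per cell cannot be told apart in such bulk samples. TRIM22 had a mean FPKM of 0.399, and the other 31 members had at least 1. Among the latter, FPKM was lowest at 8 h in 25 members (80.6%), against 35.8% of the 11105 genes of that level, and the order 8 h, 0 h, 16 h from low to high held in 22 members (71.0%), against 19.2% of genes. Their median change was -0.35 at 8 h and 0.20 at 16 h, where the medians of all genes were 0.01 and -0.01. From 8 to 16 h, a comparison that leaves out the starved cells, 28 of 31 members were higher, against 47.7% of genes. The median change was 0.54, against -0.02. This comparison shares the single 8 h library with the counts above, so it is no independent check of the low point at 8 h.

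Most single changes were modest. At 8 h, 2 of 32 members were lower by at least 1 on the log2 scale, TP53INP1 and TRIM22, where 4.53% of all listed genes were. No member was higher by 1, where 2.77% of genes were. At 16 h, GDF15 and ACER2 were higher by at least 1, against 3.11% of genes, and no member was lower by 1, against 3.36%. By the threshold of 2 used in the study, TP53INP1 alone was lower at 8 h (background 0.997% of genes), and at 16 h no member passed it in either direction, where 0.554% of genes were higher and 0.765% lower. Between 8 and 16 h, however, 9 of 32 members were higher by at least 1, against 4.53% of genes, and 0 were lower, against 2.95%. With a pseudocount of 1 the count was 6, and MDM2 and RRM2B both lay at 1.01, next to the threshold. Of the 31 members above the low range, 12 exceeded the upper bound for genes of their level in that comparison, where 2.52% of genes did by construction: TP53INP1, ACER2, SPATA18, FDXR, DDB2, GDF15, ZMAT3, RRM2B, MDM2, CCNG1, POLH and RPS27L. None was below the lower bound. At 8 h against 0 h, 3 members (TP53INP1, CCNG1 and DDB2) lay below the range and none above it, and at 16 h against 0 h, 3 (GDF15, ACER2 and FDXR) lay above it and none below.

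**Figure D1:**
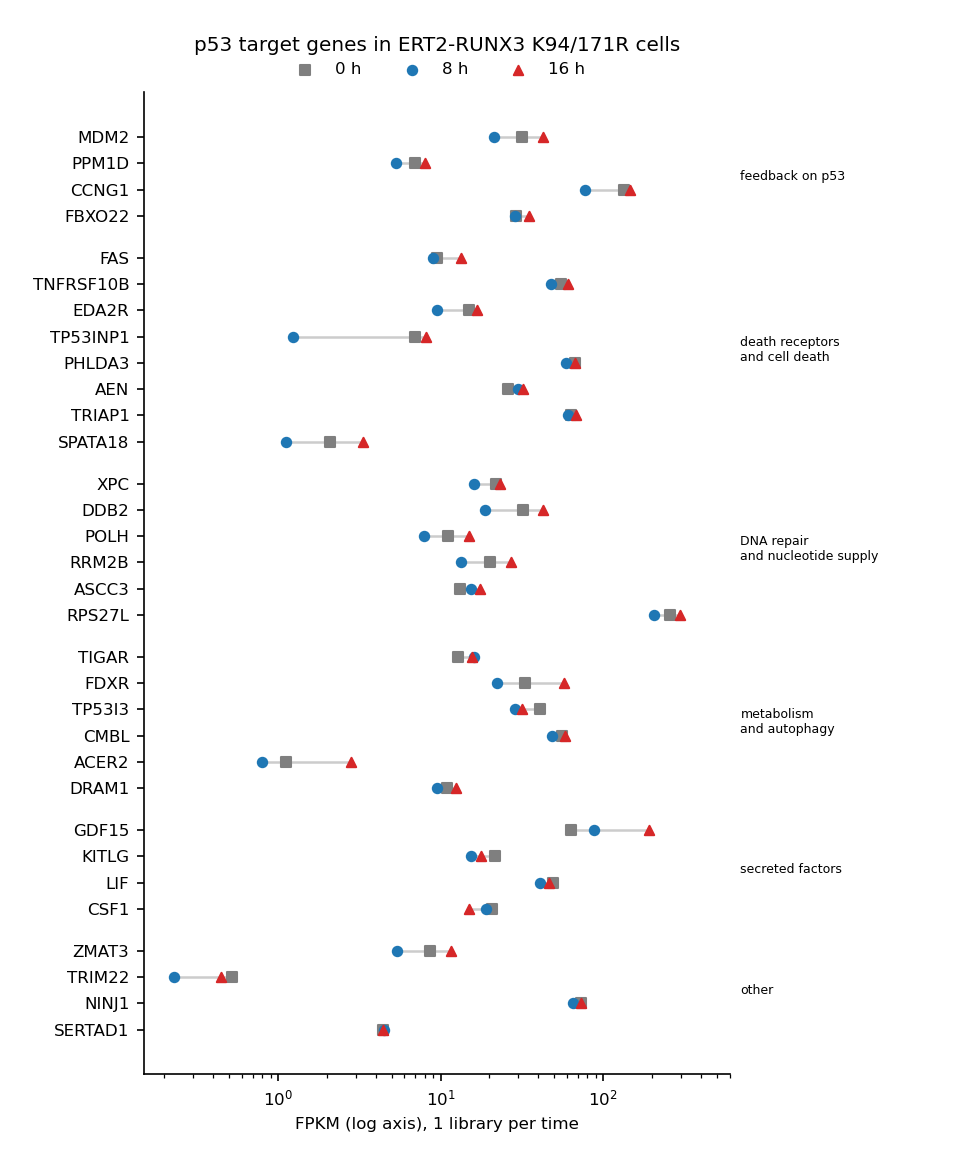
FPKM of the 32 p53 target genes in K94/171R cells, on a log axis, with 1 library each at 0 h (squares), 8 h (circles) and 16 h (triangles), grouped by role. In 26 genes the 8 h circle is the leftmost point, and TP53INP1 has the widest gap, from FPKM 1.24 to 8.10.

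**Figure D2:**
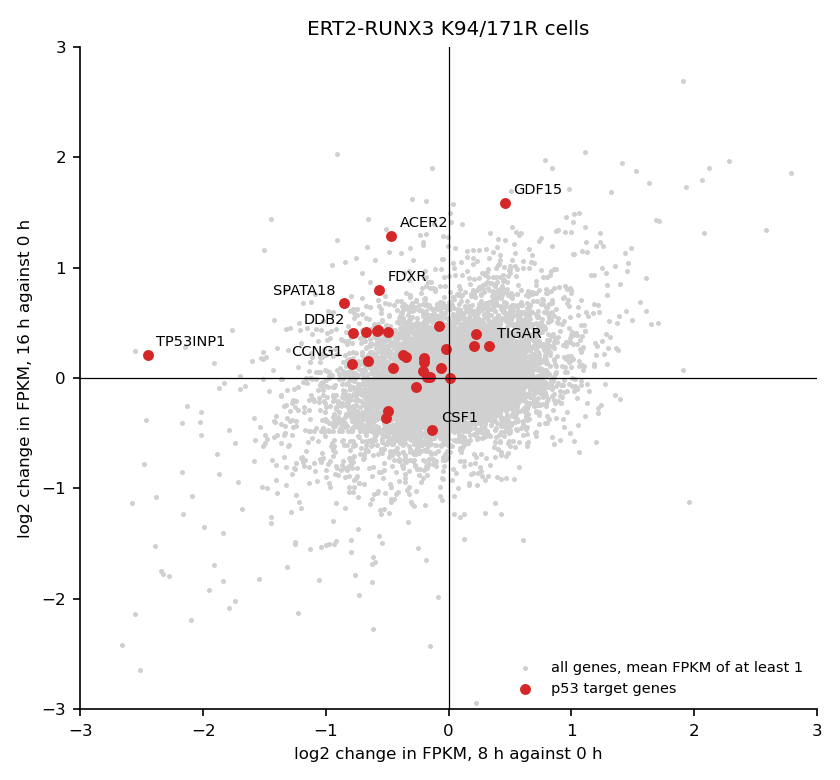
Log2 change at 8 h (horizontal) and at 16 h (vertical) against 0 h in K94/171R cells, for genes with mean FPKM of at least 1 (grey) and the 31 p53 target genes among them (red). Both axes share the 0 h library, and 21 of 11105 genes lie beyond the axes; most red points fall in the upper left part, lower at 8 h and higher at 16 h.

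The 4 genes that feed back on p53 shared the low point at 8 h. MDM2 (ENSG00000135679, chromosome 12, 69201957 to 69239324 of hg19), the ligase that marks p53 for degradation, stood at FPKM 31.6 in starved cells, 21.3 at 8 h and 42.8 at 16 h. Its change was -0.57 at 8 h and 0.44 at 16 h. CCNG1 (cyclin G1), which recruits a phosphatase that activates MDM2, was the second most abundant member by mean FPKM and stood at 134, 77.3 and 146. At 8 h its change was -0.79, as low as in 3.86% of genes. PPM1D, the WIP1 phosphatase that dephosphorylates p53 and the kinases upstream of it, had 6.93, 5.35 and 7.99. FBXO22, an F-box protein involved in turnover of p53-bound complexes, was nearly level between 0 and 8 h, at 29.0 and 28.6, and reached 34.8 at 16 h. Thus all 4 were lower at 8 h and higher at 16 h than at 0 h, but FBXO22 only by -0.02 at 8 h, which became 0.02 with FPKM rescaled to the same sum.

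Among the 8 genes of death receptors and cell death, TP53INP1 had by far the deepest low point. TP53INP1, a stress protein that promotes p53 phosphorylation and autophagy, had FPKM 6.99 in starved cells and 1.24 at 8 h, and at 16 h it was 8.10. Its change of -2.45 at 8 h was matched or exceeded by 0.162% of genes, and its change of 2.66 from 8 to 16 h by 0.081%. SPATA18, which takes part in mitochondrial quality control, had low FPKM of 2.08, 1.13 and 3.36, with changes of -0.85 and 0.68. EDA2R, a receptor for ectodysplasin A2, had 15.1, 9.54 and 16.8. These 3 genes thus lost between 0.66 and 2.45 on the log2 scale by 8 h and stood above the starved level at 16 h.

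The receptors for Fas ligand and TRAIL varied less. FAS stood at FPKM 9.57, 9.05 and 13.3, with changes of -0.08 and 0.47, so that it differed mainly at 16 h. TNFRSF10B, the TRAIL receptor DR5, had 54.8, 47.8 and 60.7. PHLDA3, which restrains AKT at the membrane, had 66.9, 59.1 and 67.6, and TRIAP1, a small protein of mitochondrial lipid transfer that limits apoptosis, had 63.7, 61.1 and 67.8. Neither PHLDA3 nor TRIAP1 moved by more than 0.18 from the 0 h level. AEN, an apoptosis-enhancing nuclease, was the exception in this group and was higher at both times, with 26.1, 30.2 and 32.04. All changes of these 5 genes lay inside the range for their level.

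Genes of DNA repair and nucleotide supply mostly had the same order, with 8 h lowest and 16 h highest in 5 of 6. DDB2 (ENSG00000134574, chromosome 11, 47236016 to 47260768), which recognises ultraviolet lesions, had FPKM 32.2, 18.8 and 42.8, and its change from 8 to 16 h was 1.19. RRM2B, the p53-induced subunit of ribonucleotide reductase, had 20.1, 13.4 and 27.04. POLH, a polymerase for replication past lesions, had 11.2, 7.90 and 14.9. In these 3 genes the 8 h change was between -0.78 and -0.50 and the 16 h change between 0.41 and 0.43. XPC, the partner of DDB2 in damage recognition, was lower at 8 h and back near its starting level at 16 h, with 21.8, 16.0 and 23.3. RPS27L, a ribosomal protein paralogue and the most abundant member, had 260, 204 and 296, and reads shared with RPS27 could not be checked. ASCC3, a helicase of alkylation repair, went against the others at 8 h, with 13.2, 15.4 and 17.4. Thus 5 of the 6 were lower at 8 h, and all 6 were higher at 16 h than at 0 h.

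Among the 6 metabolic targets, 8 h was lowest in 5 (background 35.8% of genes). In 4 of them 16 h was also highest (background 19.2%). FDXR (ENSG00000161513, chromosome 17, 72858619 to 72869156), the reductase that passes electrons to mitochondrial ferredoxin, had FPKM 33.2, 22.4 and 57.9. Its change of 0.80 at 16 h was reached by 1.98% of genes. ACER2, a Golgi ceramidase, had 1.12, 0.798 and 2.82, and its change of 1.29 at 16 h was reached by 0.522% of genes, though at low FPKM: with a pseudocount of 1 it was 0.85. DRAM1, a lysosomal protein of autophagy, had 10.9, 9.51 and 12.5, and CMBL, a hydrolase, had 55.6, 48.2 and 57.9, both with small changes. TP53I3 (PIG3), a quinone oxidoreductase, stayed below its starved level, with 41.0, 28.8 and 31.8. TIGAR, which lowers fructose-2,6-bisphosphate and so limits glycolysis, was higher at both times, with 12.8, 16.0 and 15.6.

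The 4 secreted factors did not share a course. GDF15 (ENSG00000130513, chromosome 19, 18485541 to 18499986), a stress cytokine of the TGF-beta family, had FPKM 63.8 in starved cells, 87.6 at 8 h and 192 at 16 h. Its change at 16 h was 1.59, the largest of any member, and was reached by 0.243% of genes. KITLG, the ligand of KIT, had 21.7, 15.4 and 17.6. LIF, a cytokine of the interleukin-6 family, had 49.1, 40.9 and 46.3. CSF1, the macrophage growth factor, was lower at each later time, with 20.9, 19.03 and 15.003. GDF15 was therefore higher at 16 h than at 0 h and KITLG and CSF1 were lower, by 0.30 and 0.47 on the log2 scale. LIF lay at -0.08, which became 0.01 with FPKM rescaled to the same sum.

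Of the 4 remaining members, ZMAT3, a zinc finger protein that binds RNA and holds the site with no mismatch, had FPKM 8.63, 5.39 and 11.6, with changes of -0.67 and 0.42. TRIM22, a tripartite-motif protein also induced by interferon, had 0.523, 0.229 and 0.445, and its change of -1.04 at 8 h rests on low values and was -0.31 with a pseudocount of 1. NINJ1, a membrane protein of plasma membrane rupture, had 72.6, 65.3 and 73.0. SERTAD1, a regulator of CDK4, was level within 0.01 on the log2 scale, with 4.44, 4.47 and 4.44.

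Members with a p53 site near the start and members without one both showed the course. The 9 with a site had a median change of -0.58 at 8 h and of 0.81 from 8 to 16 h. The 22 without one, TRIM22 left out, had -0.30 and 0.34. Over all protein-coding genes with mean FPKM of at least 1, the 255 with a site had -0.03 and 0.07 and the 10789 without had 0.01 and -0.02. MDM2, FDXR and DDB2, with changes of -0.57, -0.57 and -0.78 at 8 h, had no site by this search. AEN, which had a site, was not lower at 8 h. A match is a description of sequence, and no match says only that these letters are not in the window.

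Other direct targets of p53, 40 genes listed apart from the members and likewise chosen with earlier results known, took a similar course. Of these, 39 were found in the K94/171R table, 32 with mean FPKM of at least 1. Among the 32, 22 were lowest at 8 h (68.8%, background 35.8%), and their median changes were -0.35 at 8 h, 0.33 at 16 h and 0.64 from 8 to 16 h. From 8 to 16 h, 10 lay above the range for their level and 1, IGFBP3, below it, where 2.52% of genes lay on each side by construction. At 8 h against 0 h, 4 of the 32 lay below the range and 0 above it. At 16 h against 0 h, 6 lay above it and 2, SFN and IGFBP3, below it, with the same background. CDKN1A, the cell-cycle inhibitor p21, had FPKM 146, 68.5 and 247, lower by 1.09 at 8 h and higher by 0.76 at 16 h. BBC3 (PUMA), a killer protein of the BCL2 family, had 3.595, 1.63 and 5.84. BAX, its pore-forming relative, had 159, 123 and 144 and stayed inside the range for its level. Of all 39, 3 (7.69%) were lower by at least 1 at 8 h (CDKN1A, BBC3 and, at low FPKM, GLS2) and 0 were higher. Over all listed genes, 4.53% were lower and 2.77% higher. At 16 h, 4 (10.3%) were higher by at least 1, against 3.11% of all listed genes. At that time 1, TNFRSF10C at low FPKM, was lower, against 3.36%. The 4 were EPS8L2 (FPKM 4.04, 2.81 and 10.4), BTG2 (16.0, 9.49 and 34.1), TP53I11 (0.546, 0.800 and 1.88) and, at low FPKM, PGF. Of the 39, none reached the threshold of 2 at either time.

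As a group, the genes that act upstream of or beside p53 did not follow this course. Of 20 names, which include RFWD2, the older symbol of COP1, 19 genes were found, and 16 had mean FPKM of at least 1. Their median changes were -0.06 at 8 h and 0.00 at 16 h. At 8 h, 7 of the 16 were at their lowest (43.8%, background 35.8%), and from 8 to 16 h 0 lay outside the range for their level. MDM4, a partner of MDM2 that binds p53, had 7.08, 6.84 and 7.60. CDKN2A, the locus of p16 and of the MDM2 inhibitor ARF, was listed at 0 in all 3 libraries. The study describes ARF as wild-type in H460 cells, and the reason for the values of 0 was not tested. Of the 19, none was higher or lower by 1 at 8 h, where 2.77% and 4.53% of all listed genes were. TP73, at low FPKM, was lower by 1.59 at 16 h, where 3.36% of genes were lower by at least 1.

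**Figure D3:**
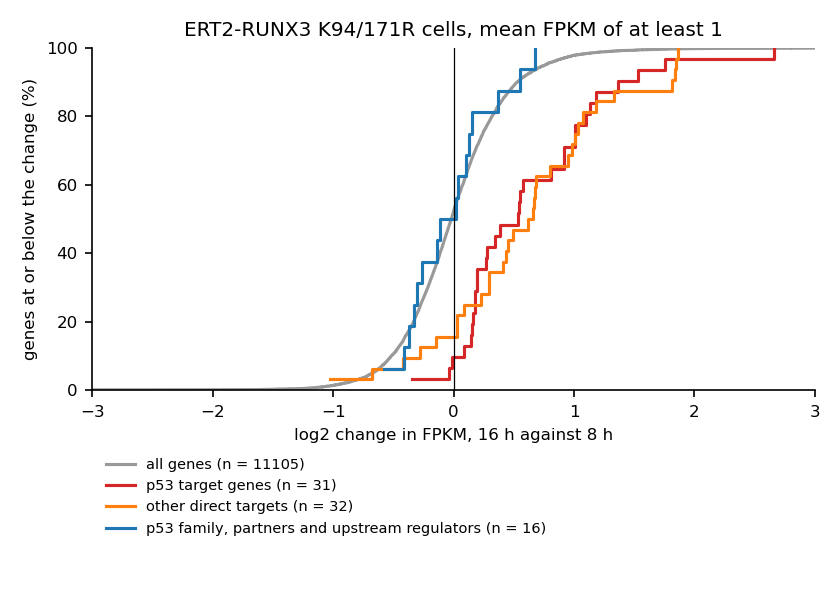
Cumulative share of genes (vertical, percent) by log2 change from 8 to 16 h (horizontal) in K94/171R cells, for genes with mean FPKM of at least 1. The curves of the 31 p53 target genes (red) and the 32 other direct targets (orange) lie to the right of all 11105 genes (grey), with medians of 0.54 and 0.64 against -0.02, while the 16 p53 family, partner and upstream genes (blue) lie along the grey curve with a median of -0.05.

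In the H460-vec and WT lines only CSF1 could be followed among the members. CSF1 (chromosome 1, 110453233 to 110473616 of hg19 as its locus was given with that table) had FPKM 6.88, 5.40 and 6.02 in H460-vec at 0, 8 and 16 h. In WT cells it had 12.4, 6.25 and 3.99. The change at 16 h was -1.62 in WT cells, against -0.19 in H460-vec and -0.47 in K94/171R cells, and at 8 h the values were -0.98, -0.35 and -0.13 in the same order. CSF1 was therefore lower after serum and 4-OHT were added together in all 3 lines, most so in WT cells. A change of -1 or below was common at 16 h in WT cells, with 14.9% of all listed genes, against 2.57% in H460-vec and 3.36% in K94/171R, so the WT library at 16 h stood apart. At 8 h the shares were 5.09% in WT and 2.44% in H460-vec. The K94/171R table was made separately, so levels were not compared with it.

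Beside CSF1, 9 genes of the pathway lists had a name in that table, all on chromosome 1. BTG2, an antiproliferative transcriptional cofactor, had FPKM 4.19, 5.64 and 4.93 in H460-vec and 5.07, 5.15 and 18.2 in WT cells. In K94/171R cells its change was -0.75 at 8 h and 1.09 at 16 h, in H460-vec 0.43 and 0.23, and in WT 0.02 and 1.84. PLK3, a stress-responsive kinase, had 1.74, 3.32 and 2.81 in H460-vec and 2.01, 6.50 and 7.95 in WT. MDM4 was highest in WT cells at 16 h, with 5.98, 9.21 and 19.8, and its H460-vec values lay between 5.58 and 6.36. IER5, an immediate early gene, was highest in the same library, with 18.7, 23.8 and 61.7, and its H460-vec values lay between 13.6 and 17.3. ATF3, SESN2 and GADD45A had the highest changes of these 9 genes in WT cells at both times. ATF3, a stress-induced transcription factor, had 2.95, 46.2 and 235 in WT and 1.52, 1.69 and 4.13 in H460-vec. SESN2, a sestrin that restrains mTORC1, had 2.61, 22.4 and 46.1 in WT and 2.75, 4.11 and 6.01 in H460-vec. GADD45A, which acts in growth arrest after DNA damage, had 15.9, 80.1 and 131 in WT and 9.66, 10.2 and 10.7 in H460-vec. SFN, 14-3-3 sigma, had 51.9, 97.6 and 113 in WT and 55.6, 88.6 and 58.5 in H460-vec.

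In K94/171R cells SESN2, BTG2, GADD45A, PLK3 and MDM4 were lowest at 8 h. These 5 genes were picked by that low point, so the K94/171R side of the contrast was set by the choice. By FPKM as deposited, none of the 5 was below its 0 h level at 8 h in H460-vec or WT cells, with 1 library per line and time. They had changes between -0.75 and -0.05 at 8 h in K94/171R cells and between 0.08 and 0.91 in H460-vec. In WT cells their changes at 8 h lay between 0.02 for BTG2 and 3.08 for SESN2. The BTG2 value is near 0, and the FPKM sum of WT cells was 554359 at 0 h and 627094 at 8 h. Its direction therefore depends on the scaling, and rescaled values were not computed for BTG2. ATF3 was lower at each later time in K94/171R cells, with FPKM 2.41, 1.85 and 1.37. In WT cells SESN2, GADD45A, PLK3 and ATF3 were higher by 1.67 to 3.94 at 8 h and by 1.96 to 6.29 at 16 h, where 4.4% and 14.3% of all listed WT genes were higher by at least 1. In H460-vec SESN2 and ATF3 were higher by 1.11 and 1.41 at 16 h, where 3.42% of genes were higher by at least 1. TP73 stayed at or below FPKM 0.201 in all 9 libraries. Whether the members other than CSF1 had a low point at 8 h in H460-vec or WT cells was not analysed here.

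**Figure D4:**
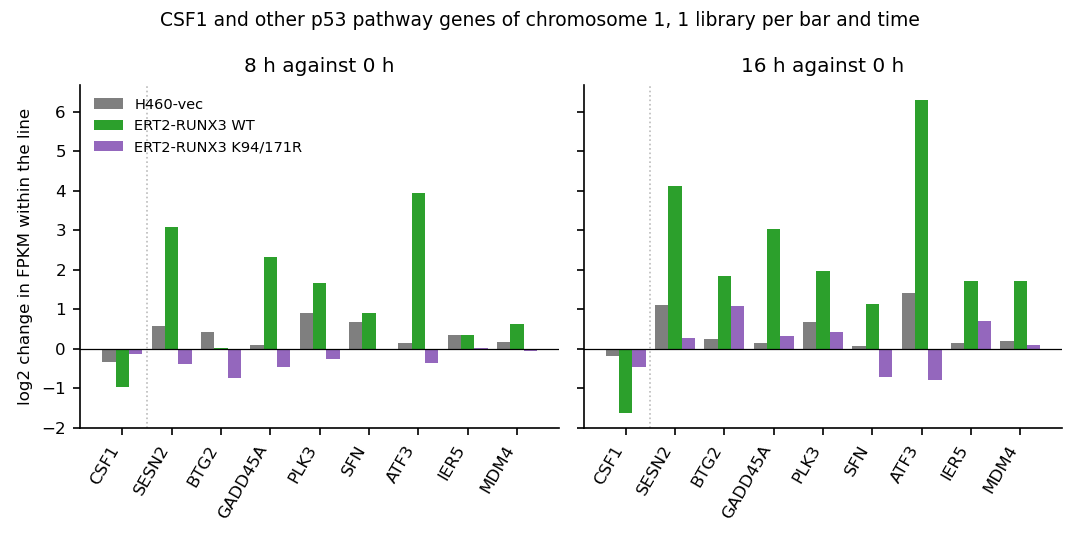
Log2 change in FPKM at 8 h (left) and 16 h (right) against 0 h of the same line, 1 library per line and time, for CSF1 (left of the dotted line) and 8 p53 pathway genes of chromosome 1. H460-vec is grey, WT green and K94/171R purple; at 16 h the green bars run from -1.62 for CSF1 to 6.29 for ATF3, and at 8 h the purple bars lie between -0.75 and 0.02.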

How the data were processed

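As the processing notes and methods state, TruSeq Stranded mRNA libraries were trimmed (Cutadapt) and aligned by STAR 2.5.0 against hg19, and the authors deposited FPKM per gene from Cufflinks (Cuffdiff 2.2.1). The annotation, and whether counting used the strand, are not given in the sources used here. The 2 tables, for the 3 K94/171R libraries and for the other 6, were made separately, so changes were computed within a table with a pseudocount of 0.05.

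In the K94/171R table, 19494 of 19869 Ensembl identifiers matched a symbol. In the other table, 1144 identifiers, all on chromosome 1, were named through a shortened copy of the study's supplementary data, and the rest were not named here. All members are named in the text. Of the other pathway genes, MDM4, CDKN2A, CDKN1A, BAX, BBC3, those past 1 and those with a name in the other table are named, and IGFBP3, GLS2, TNFRSF10C and PGF were added after their values were seen. The values of 1 gene of the upstream list are not reported here. Members and lists were chosen with earlier results of these data known. The 8 to 16 h counts, the range by level and the search of 2500 bases were added after the files were seen. With 1 library per condition no test was run. The functions were tested on simulated data. Gene coordinates are from GENCODE v44lift37, and computations used Python 3.11.15 with pandas 2.3.3.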

Additional observations from a re-analysis of the deposited data

Results flagged for a closer look

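Among the pathway genes with a name in both tables, ATF3 and SFN were lower at both times in K94/171R cells and higher at both times in the other lines. For ATF3 the 16 h change in WT cells lay 7.08 above that in K94/171R cells on the log2 scale, and the change in H460-vec lay 2.2 above it. For SFN the corresponding distances were 1.84 and 0.79. The SFN change at 8 h in K94/171R cells was only -0.04, and at 16 h in H460-vec it was only 0.07. The FPKM sum of H460-vec was 595679 at 0 h and 641519 at 16 h, so the direction of the latter value depends on the scaling. These differences between lines were not tested, since each rests on 1 library per time and on tables made separately.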

How the results depend on the processing

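No paired analysis was possible because each condition has 1 library, and for the same reason no replicate could be left out. Values were taken as kept when they moved by at most 0.1 on the log2 scale, and counts when they stayed within 1.5 times. By these bounds the 3 medians of the members, the count of 26 lowest at 8 h and the count of 12 above the range of their level stayed under every alternative run on them, though the 26 became 25 with FPKM rescaled to the same sum. With a pseudocount of 1, 1 member was lower by 1 at 8 h and 1 higher at 16 h, and with a threshold of 2 these counts were 1 and 0, with 0.5 they were 11 and 4. Without TRIM22, at mean FPKM under 1, the count at 8 h was 1. From 8 to 16 h, 1 member was higher by 2 and 17 by 0.5, and 6 by 1 with a pseudocount of 1. For CSF1 at 16 h in WT cells the change of -1.62 became -1.42 with a pseudocount of 1 and -2.11 with FPKM rescaled to the same sum. The same rescaling gave -1.16 at 8 h in WT cells and -0.30 at 16 h in H460-vec. For the other direct targets, the 3 lower at 8 h became 1 with a pseudocount of 1, 0 at a threshold of 2 and 12 at 0.5, and the 0 higher became 1 after rescaling to the same sum and 2 at 0.5. Their 4 higher at 16 h became 2, 0 and 11 in the same order of settings, and the 1 lower became 0, 0 and 5. For the upstream genes, the 1 lower at 16 h became 0, 0 and 3, and at 8 h the threshold of 0.5 gave 1 higher and 1 lower. Of 192 single-gene values, 7 moved, all with a pseudocount of 1 and in TP53INP1, SPATA18, ACER2 and TRIM22. TP53INP1 was then at -1.84 at 8 h. Rescaling to the same sum acts through the FPKM sums, which in WT cells were 554359, 627094 and 780952 at 0, 8 and 16 h. In H460-vec they were 595679, 590682 and 641519, and in K94/171R cells 603652, 588309 and 566164. Why the sums differed was not tested. Among the named genes of H460-vec and WT cells, rescaled changes were computed for CSF1 only. Depth is unknown and limits the genes of low FPKM.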
